A study of Mus musculus with 8 samples.

Results

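The 10 genes described are Myc, Mycn and Mycl, their shared partner Max, the Max-binding repressors Mxd1, Mxd3, Mxd4, Mxi1 and Mnt, and the large Max partner Mga, out of 21887 protein-coding genes in the mm10 gene table. They were chosen by the peak calls of these same 6 lists, known from earlier results, so the calls, folds and fragment counts at these genes are a description and carry no test. A peak was assigned to a gene when any base of it lay inside the gene or within 1 kb of its start or end. Proteins of this network hold a basic helix-loop-helix leucine zipper and bind DNA in pairs that usually contain Max. Myc paired with Max activates genes of growth and ribosome production through E-boxes, the sequence CACGTG, whereas Mxd proteins and Mnt compete for Max and recruit Sin3 corepressors to the same sequence. In myoblasts Myc is known to favour proliferation and to oppose differentiation.

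The data were chromatin immunoprecipitation with sequencing (ChIP-seq) of APOBEC2, a member of the AID/APOBEC family of cytidine deaminases found mainly in striated muscle. The cells were C2C12, an established mouse myoblast line, moved to medium with 2% horse serum, which induces differentiation. There were 3 libraries immunoprecipitated with a polyclonal rabbit anti-APOBEC2 antibody and 1 input at 34 h, and 3 such libraries and 1 input at 14 h. All carried the unmodified line and the same antibody, and no control-antibody library and no library of cells lacking APOBEC2 was used here. Titles and characteristics give the earlier time as 14 h and the growth protocol gives it as 24 h, so that time is uncertain. The labels do not say that libraries of a time came from separate cultures, and the spread between them may be technical.

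The peak lists held 2209, 5025 and 1068 peaks in 34 h replicates 1 to 3, against 768, 1327 and 797 peaks in 14 h replicates 1 to 3. Replicate 2 of 34 h therefore stood apart in length, and results that rest on it are given with and without it. The authors' fold is the fragment pile-up at the summit over the local background, each with 1 added, and its median per list was 5.70 to 6.03 at 34 h and 7.99 to 8.47 at 14 h. The whole number of fragments at each summit and its background were solved from the fold and the p-value of the peak, and the weakest summit of a list stood on 10 or 11 fragments. Background is in fragments expected at the summit. All 3 libraries of a time were called against the same input, so their backgrounds are not independent of each other. Peak lists hold no expression values. Of 6 myogenic marker loci, Pax7 had a peak in 1 library and Myod1, Myf5, Myog, Des and Myh3 had none in any of the 6.

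Sequences of the members with peaks are shown first, because the network reads E-boxes and 3 of the 5 genes with peaks hold one in their promoter window. Of the other genes with peaks, Mxd3 holds none in its window and Myc could not be searched. The Mxd3 window stops short of the Mxd3 summits, which lay 362 to 393 bases upstream of the RefSeq start. The sequence under those summits was therefore not searched. Over all promoter windows of protein-coding genes, 7.84% hold an E-box. The sequences are from RefSeq on build GRCm38.p6, whose chromosomes are those of mm10, and each is written 5′ to 3′ on the strand of its gene. The windows run from 250 bases before to 50 after the RefSeq start, 9 of the 10 members matched with 11 windows, and Myc had no window in the table. Capitals in the next 4 lines mark the motif, which is CACGTG in Max, Mxd4 and Mnt and the E2F-type motif GCGGGAA in Mxd3. The sites lie at chr12:76962234-76962263, minus strand, for Max, at chr5:34187912-34187941, minus strand, for Mxd4, at chr11:74830789-74830818, plus strand, for Mnt, and at chr13:55329850-55329878, minus strand, for Mxd3.
Max: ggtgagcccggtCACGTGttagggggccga
Mxd4: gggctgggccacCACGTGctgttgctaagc
Mnt: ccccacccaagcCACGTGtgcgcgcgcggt
Mxd3: gttcagcctggGCGGGAAgaggcgggctg

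The E-box of Mxd4 lay 24 bases from the summit of the only peak there. That of Mnt lay under the peaks of 34 h replicates 1 and 2, at 15 and 54 bases from their summits. The E-box of Max spans the RefSeq start of the gene, 150 bases from the summit of its only peak and under that peak. No CACGTG occurred in the windows of Mxd3, Mycn, Mycl, Mxd1, Mxi1 or Mga. Over all 21263 promoter windows of protein-coding genes, 7.84% held CACGTG, which reads the same on both strands. Among windows under a peak the share was 7.77% of 1312 for at least 2 libraries of 34 h and 7.20% of 639 for at least 2 libraries of 14 h. In 34 h replicate 2 it was 9.43% of 2619, and for peaks in all 6 libraries it was 5.25% of 343. A match of letters is neither a site of binding nor a cause of a peak.

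The motif GCGGGAA, searched on both strands, occurred in the window of Mxd3 and of no other member. It lay under the peak of 14 h replicate 2 alone, 246 bases from that summit, and not under the other 5 peaks at Mxd3. It was in 5.95% of all windows, in 19.3% of those under peaks of at least 2 libraries of 34 h and in 29.4% of those under peaks of at least 2 libraries of 14 h. The GC box GGGCGG was also searched on both strands. It occurred 8 times in the Mxd3 window, 6 times in that of Mxd1 and 4 times in that of Mnt. Some copies overlapped GCGGGAA or each other. At Mxd3 only the copy overlapping GCGGGAA lay under a peak, that of 14 h replicate 2, 244 bases from its summit. The copies at Mnt lay under peaks of 34 h replicates 1 and 2. The window of Max, which had a peak, held no copy. In the windows of Mxi1, which had no peak, the GC box occurred 1, 4 and 4 times. It was in 46.2% of all windows, 74.5% of those with 34 h peaks and 75.0% of those with 14 h peaks. Mxd1, which had no peak, had a window of 76.7% G and C, the highest among the members, against 71.0% for Mxd3, 70.7% for Mnt and a median of 56.3% over all windows. The windows of Mxi1 held 56.0%, 63.0% and 75.0%. Those of Max and Mxd4, which had peaks, held 64.7% and 61.0%. Those of Mycn, Mycl and Mga, which had no peak, held 56.7%, 64.0% and 60.0%. A relation of G and C content to peaks was not tested.

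The stretch just outside the annotated Mxd3 gene is shown because all 6 libraries had their summit upstream of it. It is chr13:55329901-55329981, minus strand, and capitals mark the 45 bases under the peaks of at least 5 of the 6 libraries. The stretch just outside Mxd4, chr5:34187711-34187960, minus strand, holds the summit of its peak, and capitals there mark its E-box, a GC box and a pair of CCAAT boxes, the last 3 read from the opposite strand. The E-box and the CCAAT box farther from the RefSeq start lay under the Mxd4 peak. The GC box and the nearer CCAAT box lay outside that peak. CCAAT was in 38.2% of all windows, and among members its matches were in Mxd4 and Mxd1.
Mxd3: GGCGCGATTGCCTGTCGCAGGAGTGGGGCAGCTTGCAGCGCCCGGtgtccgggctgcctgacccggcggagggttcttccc
Mxd4: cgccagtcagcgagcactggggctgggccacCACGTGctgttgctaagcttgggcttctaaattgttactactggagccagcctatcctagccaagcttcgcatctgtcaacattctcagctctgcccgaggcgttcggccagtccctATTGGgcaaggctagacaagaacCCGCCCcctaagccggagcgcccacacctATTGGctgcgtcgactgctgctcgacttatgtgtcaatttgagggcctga

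Peaks of the family were at Mxd3 and Myc in every library, and at Mnt, Max and Mxd4 in the longer 34 h lists only. In 34 h replicate 1, 3 of the 10 genes had a peak (Mxd3, Myc and Mnt), where 9.24% of all protein-coding genes did. In 34 h replicate 2 there were 5, with Max and Mxd4 added, beside 18.1% of all genes. Replicate 3 of 34 h had 2, Mxd3 and Myc, beside 4.70%. The same 2 genes had a peak in each 14 h library, where 3.72%, 6.50% and 3.97% of all genes had one in replicates 1 to 3.

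A peak region shared by at least 2 libraries of a time was present at 3 members at 34 h, namely Mxd3, Myc and Mnt, and at 2 at 14 h, namely Mxd3 and Myc. These are 30.0% and 20.0% of the members, and the shares over all protein-coding genes were 8.76% at 34 h and 4.27% at 14 h. Over any of the 6 libraries 5 members had a peak, beside 20.2% of all genes, and 2 had one in all 6, beside 2.26%. Because the family was chosen with these calls known, nothing is read from the difference between members and all genes. Mnt lost its shared region without 34 h replicate 1, without 34 h replicate 2, or with every list shortened to 768 peaks, so that 2 members were left at 34 h under each of these, as at 14 h. None of the members' peaks was shared with another gene.

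**Figure D1:**
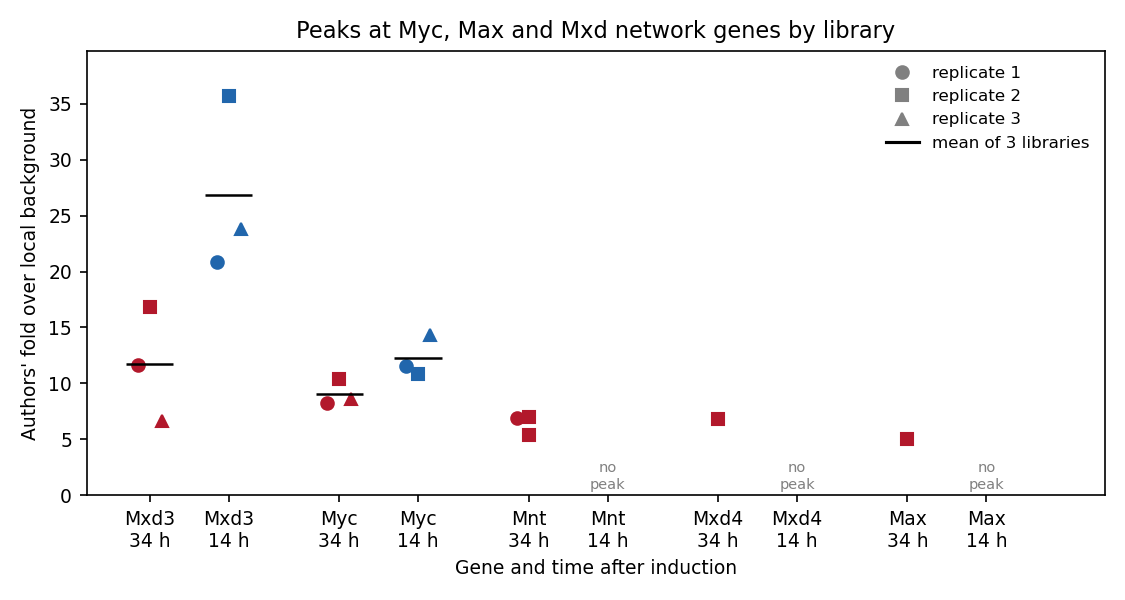
The authors' fold over local background (linear axis) of every peak at the 5 members with peaks, by gene and time after induction, with 34 h in red and 14 h in blue. Symbols are replicates and black lines the mean of 3 libraries. At Mxd3 and at Myc each of the 3 folds of 34 h lies under each of the 3 of 14 h, and Mnt, Mxd4 and Max have no peak at 14 h.

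Mxd3, a short Max-binding repressor of the Mxd group that is known to be expressed in dividing cells around S phase, had the highest mean fold of the family at both times. The gene lies at chr13:55325170-55329900 on the minus strand. Its fold was 11.6, 16.8 and 6.66 in 34 h replicates 1 to 3, against 20.9, 35.7 and 23.8 in 14 h replicates 1 to 3. All 3 values of 34 h were under all 3 of 14 h. The means were 11.7 ± 5.08 at 34 h (SD, n = 3) and 26.8 ± 7.87 at 14 h (SD, n = 3), a log2 difference of -1.26 (34 h minus 14 h, mean of log2 folds). Within the lists these folds stood at percentiles 93.6, 98.0 and 65.0 at 34 h and 92.6, 97.7 and 94.4 at 14 h. Only 34 h replicate 3 was below the 90s, and its fold was the lowest of the 6. As a description within each time, the Mxd3 region was by mean fold number 143 of 2010 shared regions at 34 h and 38 of 856 at 14 h.

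The fragments behind the Mxd3 summits did not separate the times. They numbered 50, 77 and 32 at 34 h, against 41, 79 and 49 at 14 h, so the groups overlapped. These counts are not corrected for depth, which is unknown, so similar counts are not shown to be similar signal. Exact Poisson 95% intervals, which cover counting error only, ran between 60.8 and 96.2 for the highest count at 34 h and between 62.5 and 98.5 for the highest at 14 h. The background under these summits was 3.38, 3.64 and 3.95 fragments at 34 h, against 1.01, 1.24 and 1.10 at 14 h, with no overlap. The backgrounds of a time, by which its folds are divided, rest on 1 input. Their separation therefore sets 1 input against 1 input, not 3 independent values against 3. Relative to the lowest background of its own list, a scale that removes list-wide depth, the background was 2.83 to 3.60 times that lowest value at 34 h. At 14 h it was 1.16 times in all 3 libraries, close to the lowest of each list. At Myc this ratio was 2.52 to 2.58 at 34 h and 1.53 to 2.26 at 14 h. Over all genes with a peak in every library, its median was 2.12 at 34 h and 1.63 at 14 h. At Mxd3 the lower fold at 34 h thus stood beside a higher local background and fragment numbers that overlapped between the times, and the part of the shared input in that background was not tested.

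Myc, the activator at the centre of the network, had peaks of similar position and moderate strength in all 6 libraries. The gene lies at chr15:61985341-61990361. Its fold was 8.22, 10.4 and 8.61 in 34 h replicates 1 to 3, against 11.6, 10.9 and 14.3 in 14 h replicates 1 to 3, and again the groups did not overlap. The means were 9.08 ± 1.17 at 34 h (SD, n = 3) and 12.3 ± 1.82 at 14 h (SD, n = 3), a log2 difference of -0.43. The gap between the nearest values of the times, 10.4 at 34 h and 10.9 at 14 h, was smaller than the spread within either. Summit fragments were 30, 43 and 32 at 34 h and 26, 36 and 34 at 14 h, which overlap. Background was 2.77, 3.23 and 2.83 fragments at 34 h and 1.33, 2.40 and 1.44 at 14 h, which do not overlap. These values too rest on 1 input per time. Myc stood at percentiles 83.8, 92.7 and 83.3 of its lists at 34 h and at 72.7, 68.0 and 79.2 at 14 h. By rank its peaks were numbers 359, 370 and 179 of their lists at 34 h and 211, 424 and 166 at 14 h. The lists differ in length, so neither percentiles nor ranks are read as a change between the times. A weaker peak of 34 h replicate 2, of fold 4.56 and 16 fragments, lay 1.78 kb from Myc, just outside the 1 kb limit.

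**Figure D2:**
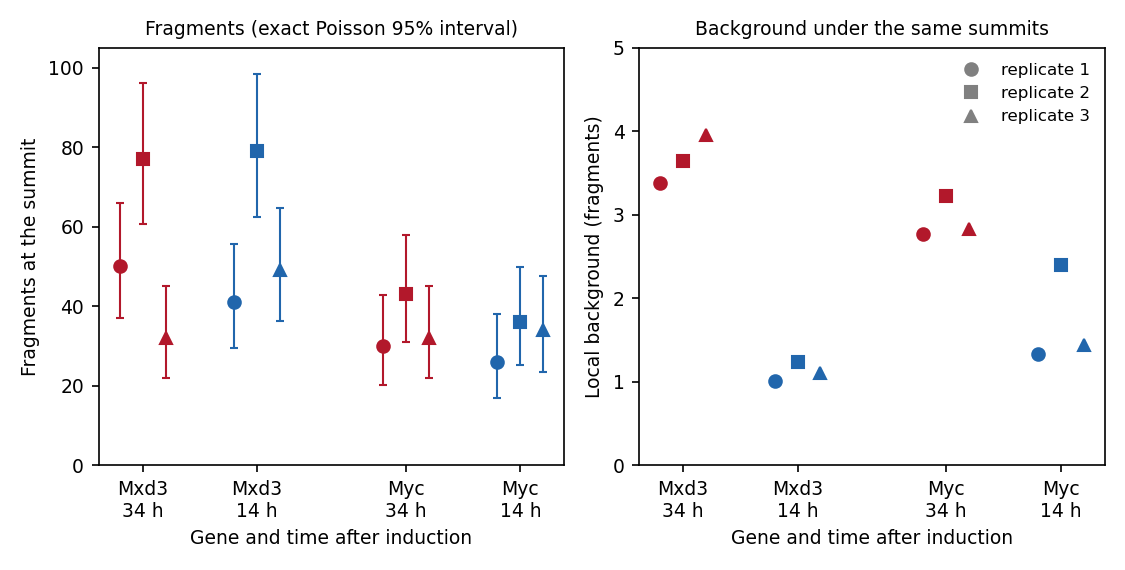
Fragments at the summit with exact Poisson 95% intervals (left) and local background in fragments (right) at Mxd3 and Myc, by time, with 34 h in red, 14 h in blue and symbols for replicates. Fragments overlap between the times at both genes, whereas every background of 34 h lies above every background of 14 h.

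The same shift was general to the genes with a peak in all 6 libraries, which were 495 including Mxd3 and Myc. Over these the median log2 difference of fold was -0.44 (34 h minus 14 h), with quartiles of -0.73 and -0.20, and 89.5% of the genes were below 0. Fragments had a median difference of -0.08 and background of 0.63 on the log2 scale. All 3 folds of 34 h were under all 3 of 14 h at 33.9% of the genes, and all 3 backgrounds of 34 h were over all 3 of 14 h at 69.3%. Summit fragments separated the times, in either direction, at 3.23%. The backgrounds of a time, and through them its folds, rest on 1 input, so their separations do not count 3 independent values per time. The fold difference at Myc stood at percentile 51.1 counted from the lowest. Its difference in background, 0.82, stood at percentile 66.5 and its difference in fragments, 0.13, at percentile 80.0.

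Mxd3 lay at an end of the distribution. Its fold difference stood at percentile 2.02 and its background difference, 1.71, at percentile 98.4, while its fragment difference of -0.12 stood at percentile 41.2. Left out in turn, the 6 libraries gave fold differences at Mxd3 between -0.90 and -1.57 (percentiles 0.808 to 7.63) and background differences between 1.64 and 1.79. Each time kept its 1 input throughout, so the background range cannot show how that difference would vary between inputs. The smallest fold difference came without 34 h replicate 3, the library of the lowest fold. Its fragment difference took both signs, from -0.44 without 34 h replicate 2 to 0.20 without 34 h replicate 3. At Myc the fold difference ranged from -0.31 without 14 h replicate 3 (percentile 67.9) to -0.53 without 34 h replicate 2, with its lowest percentile, 29.6, without 14 h replicate 2, and the fragment difference from -0.03 to 0.23.

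**Figure D3:**
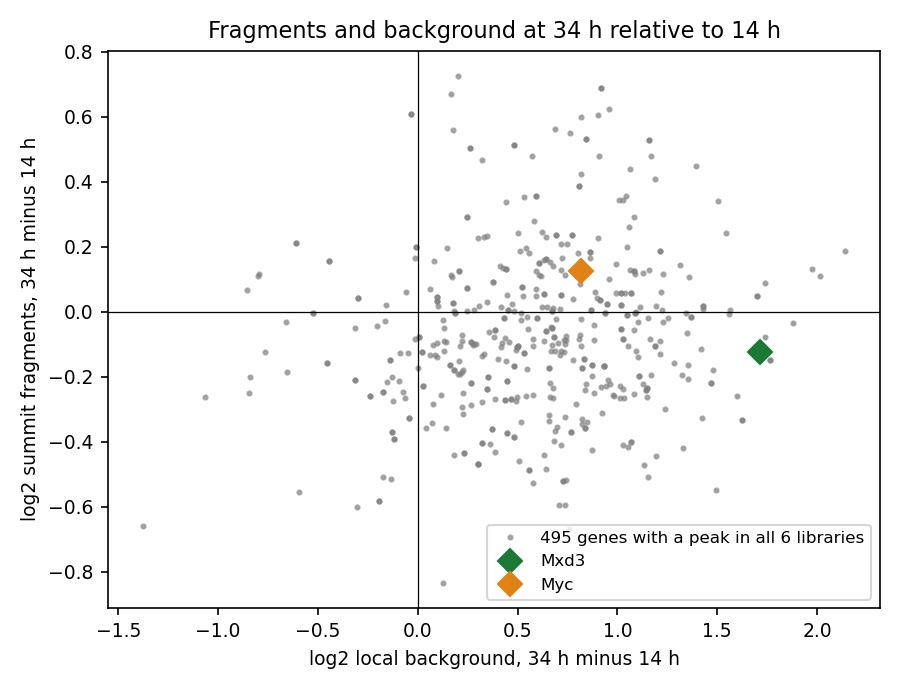
Difference in log2 local background (x axis) and in log2 summit fragments (y axis), 34 h minus 14 h, for each of the 495 genes with a peak in all 6 libraries (grey), with Mxd3 (green) and Myc (orange) marked. Both genes lie near 0 in fragments, Mxd3 stands at 1.71 on the background axis near its right end, and Myc stands at 0.82 within the bulk of the genes.

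Summits kept their place between libraries. At Mxd3 they lay 204, 213 and 193 bases outside the upper boundary of the gene at 34 h and 202, 210 and 224 bases outside it at 14 h. That is 362 to 393 bases upstream of the RefSeq start, with the peak body mostly outside the annotated gene. At Myc they lay 169, 201 and 157 bases inside the lower-coordinate boundary at 34 h and 134, 188 and 139 bases inside it at 14 h. The 2 genes thus differed in that the Mxd3 summits were outside the gene and the Myc summits inside, and in neither did the positions of the times separate.

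**Figure D4:**
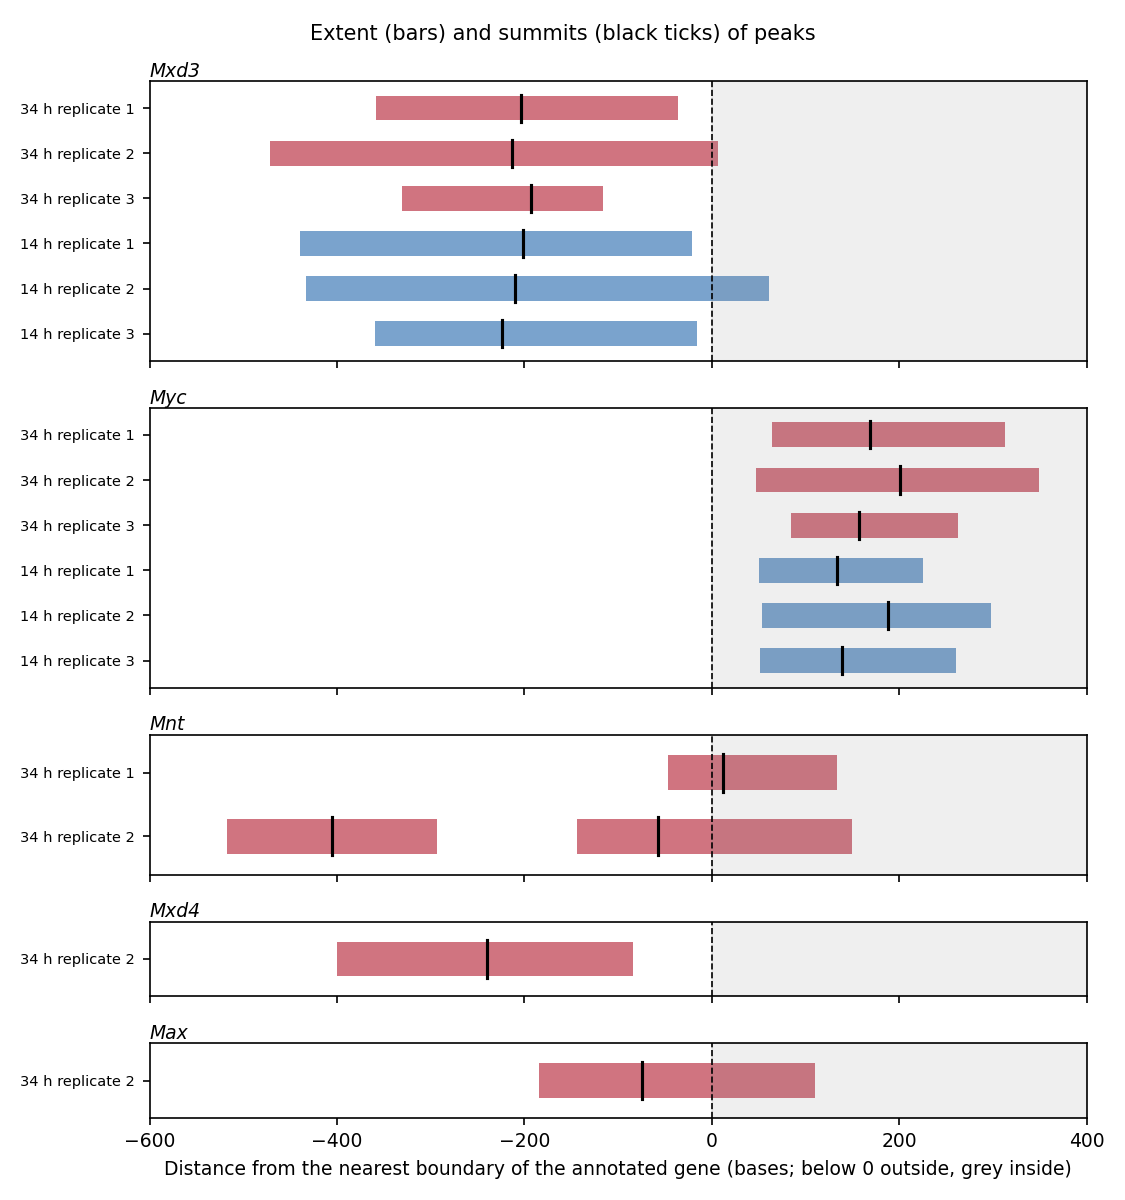
Extent (bars) and summit (black ticks) of each peak relative to the nearest boundary of the annotated gene, in bases, with the inside of the gene in grey, 34 h in red and 14 h in blue. Each row is a library with a peak. Mxd3 summits lie 193 to 224 bases outside the gene, Myc summits 134 to 201 bases inside it, and the other members have peaks in 34 h libraries only.

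Mnt, a widely expressed Max-binding repressor that recruits Sin3, had peaks in 2 of the 3 libraries of 34 h and in none of 14 h. The gene is at chr11:74830806-74845725 on the plus strand. The peak of 34 h replicate 1 had a fold of 6.94 with 19 fragments over a background of 1.88, and its summit lay 106 bases upstream of the RefSeq start. In 34 h replicate 2 the overlapping peak had a fold of 5.37, also with 19 fragments, over a background of 2.73, and its summit lay 175 bases upstream. They stood at percentiles 70.9 and 40.1 of their lists, whose median folds were 5.91 and 5.70, and the shared region (6.15 ± 1.11, SD, n = 2) ranked 1136 of 2010. Replicate 2 had a second peak at Mnt with a fold of 7.00 and 28 fragments, 523 bases upstream of the start and not seen in the other libraries.

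Max, the obligate partner of the network, had a single peak, in 34 h replicate 2. The gene is at chr12:76937269-76962323 on the minus strand, and the peak had a fold of 5.02 with 20 fragments over a background of 3.18, with its summit 150 bases upstream of the RefSeq start. At percentile 29.1 of its list it was the weakest of the members' peaks. Mxd4, an Mxd repressor linked to cells that leave the cycle, also had a single peak in that library. The gene is at chr5:34176580-34187710 on the minus strand, and the peak had a fold of 6.83 with 25 fragments over a background of 2.80, with its summit 240 bases upstream. Without 34 h replicate 2, the longest list, neither gene had a peak. With so few fragments, a site a little below the threshold of the shorter lists would not appear in them, so the difference between libraries at Mnt, Max and Mxd4 is not shown to be a difference in occupancy.

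The remaining 5 members had no peak within 1 kb in any library. They were Mycn and Mycl, which are Myc relatives with expression restricted to certain tissues, Mxd1 and Mxi1, which are Max-binding repressors, and Mga, which also carries a T-box domain. They include the longest genes of the family, Mga at 97.6 kb and Mxi1 at 63.2 kb. The others are Mxd1 at 22.2 kb, Mycl at 6.90 kb and Mycn at 5.74 kb. Of the members with peaks, Mxd3 and Myc span 4.73 and 5.02 kb, and Mxd4, Mnt and Max span 11.1, 14.9 and 25.1 kb. A relation of gene length to peaks was not tested. The nearest peak to Mga, in 34 h replicate 2 with a fold of 6.17 and 22 fragments, lay 2.15 kb away at Mapkbp1. The nearest to Mxi1 was 17.2 kb away at Smndc1, and that to Mxd1 61.6 kb away. Mycl had none within 109 kb, where the nearest lay at Cap1, and Mycn none within 1670 kb. Absence from a list is not evidence that a site was unbound.

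By Euclidean distance of log2 folds over the 6 libraries, among 494 other genes with peaks in all of them, the genes most like Myc were Xpo1 at 0.39, Tial1 at 0.50 and Ier5l at 0.52. Their mean folds were 9.62, 8.26 and 7.55 at 34 h and 11.5, 13.3 and 12.0 at 14 h. Those most like Mxd3 were 9430015G10Rik at 0.34, Mars2 at 0.40 and Iscu at 0.45, the last with a peak shared with Sart3. Their mean folds were 11.8, 11.9 and 11.3 at 34 h and 26.9, 27.1 and 24.0 at 14 h. The lower folds at 34 h in these genes follow from how they were picked.

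Other genes of the pathway were counted in 7 lists of 101 different genes, of which 29 had a shared region at 34 h and 9 at 14 h. Over all protein-coding genes the share at 34 h was 8.76%, or 4.45%, 3.90% and 8.21% without 34 h replicates 1, 2 and 3. At 14 h it was 4.27%, or 3.71%, 2.97% and 3.46% without 14 h replicates 1, 2 and 3. The Sin3 corepressor, which Mxd proteins and Mnt recruit, had 6 of 15 genes at 34 h (40.0%) and 1 at 14 h (6.67%), beside 8.76% and 4.27% of all genes. Ing2, a chromatin reader of that complex, was present at both times with a mean fold of 10.4 ± 2.55 at 34 h (SD, n = 3) and 20.3 ± 3.42 at 14 h (SD, n = 3). The other genes at 34 h were Sin3a, the scaffold, at 8.12 ± 1.07 (n = 3), Arid4b at 7.05 ± 3.15 (n = 3, with its peak shared with Ggps1), Ing1 at 5.47 ± 0.474 (n = 2), Arid4a at 5.17 ± 0.962 (n = 2) and Brms1l. The count fell to 3 without 34 h replicate 1 or without 34 h replicate 2, and to 2 with lists of equal length, where the 14 h count was 1. With lists of equal length the shares over all protein-coding genes were 3.15% at 34 h and 3.75% at 14 h.

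The polycomb-type repressor complex that contains Mga and Max had 5 of 13 partner genes at 34 h (38.5%) and 2 at 14 h (15.4%), beside 8.76% and 4.27% of all genes, although Mga itself had no peak. At 34 h these were Cbx3, a heterochromatin protein, at 8.98 ± 2.51 (n = 3, with its peak shared with Hnrnpa2b1), Tfdp2 at 7.00 ± 0.731 (n = 2), Yaf2 at 6.23 ± 1.38 (n = 2), Tfdp1 at 5.91 ± 1.16 (n = 2) and L3mbtl2 at 5.00 ± 0.664 (n = 3). The dimer partner of E2F factors, Tfdp1, and the reader L3mbtl2 also had regions at 14 h, with folds of 10.0 ± 3.26 and 8.96 ± 2.29 (SD, n = 3 each). Without 34 h replicate 1 or without 34 h replicate 2 the 34 h count was 2. With lists of equal length the order of the times turned, with 1 gene at 34 h and 2 at 14 h. It turned over all protein-coding genes as well, with 3.15% at 34 h and 3.75% at 14 h.

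Myc targets of growth and ribosome biogenesis had 10 of 34 genes at 34 h (29.4%) and 5 at 14 h (14.7%), beside 8.76% and 4.27% of all genes, and all 5 of the 14 h genes were among those of 34 h. The highest mean folds at 34 h were those of the cell cycle phosphatase Cdc25a at 9.81 ± 3.54 (n = 3), the nucleolar proteins Nolc1 at 8.13 ± 3.01 (n = 3) and Nop58 at 7.52 ± 1.41 (n = 3), the helicase Eif4a1 at 6.18 ± 0.113 (n = 2, with its peak shared with Senp3) and the ribosome assembly factor Rrs1 at 6.07 ± 0.734 (n = 2). At 14 h they were Nolc1 at 11.4 ± 2.90 (n = 3), Cdc25a at 9.45 ± 3.79, Rrs1 at 8.76 ± 1.15, Nop58 at 7.79 ± 1.91 and Bop1 at 6.86 ± 1.51 (n = 2 for each of the 4). The 34 h count was 5 without 34 h replicate 1 and 4 without 34 h replicate 2. At 14 h it was 3, 1 and 3 without replicates 1, 2 and 3. With lists of equal length the order of the times turned, with 3 genes at 34 h and 5 at 14 h, as it did over all protein-coding genes (3.15% and 3.75%).

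Genes for Myc turnover had 4 of 13 at 34 h (30.8%), beside 8.76% of all genes. Among them were the ubiquitin ligase genes Huwe1 at 6.93 ± 2.17, Skp2 at 6.55 ± 0.725 (peak shared with Lmbrd2) and Fbxw7 at 6.45 ± 0.321 (SD, n = 2 each). At 14 h the kinase gene Pim1 alone had a region (7.69%, beside 4.27% of all genes), at 6.30 ± 0.536 (n = 2). Coactivators of Myc had 3 of 17 at 34 h (17.6%, beside 8.76%) and 0 at 14 h (beside 4.27%). Those of 34 h were Paf1 at 6.94 ± 1.73 (peak shared with Med29), Actl6a at 6.61 ± 0.531 and Ep400 at 5.93 ± 1.12 (n = 2 each). Both of these lists had 0 genes at 34 h without 34 h replicate 2 or with lists of equal length. Turnover genes had 1 without 34 h replicate 1, coactivators had 1 without 34 h replicate 3, and Pim1 was lost without 14 h replicate 2 or 14 h replicate 3 and with lists of equal length. Other E-box factors of the same protein class had 1 of 9 at 34 h (11.1%, near the 8.76% of all genes) and 0 at 14 h (beside 4.27%). The 1 gene was Srebf2 at 5.81 ± 0.576 (n = 2), which was lost without 34 h replicate 1 or 34 h replicate 2. Mlx, Mlxip and Mlxipl, the parallel network around Mlx, had none at either time. Over all genes the excess of shared regions at 34 h was not present with lists of equal length (3.15% at 34 h, 3.75% at 14 h).

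**Figure D5:**
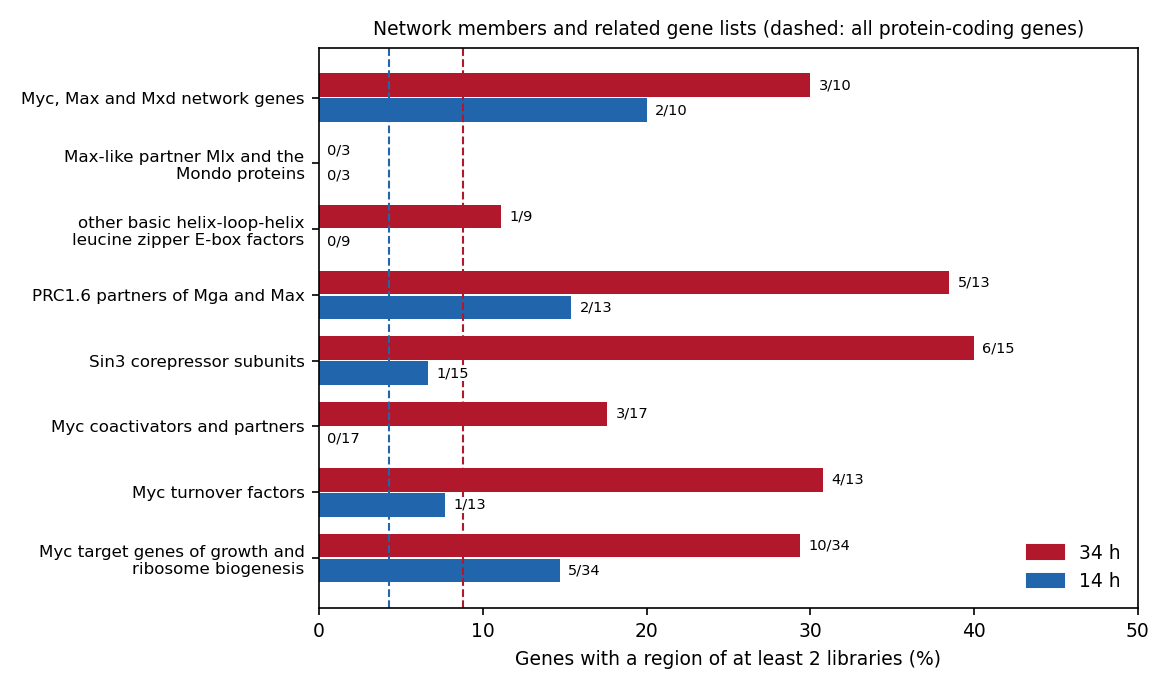
Percent of genes with a peak region shared by at least 2 libraries, for the members and 7 related lists, with 34 h in red above 14 h in blue, and the number of genes beside each bar. Dashed lines mark all protein-coding genes at 8.76% for 34 h and 4.27% for 14 h. The bars of 34 h exceed those of 14 h in every list with a region, but with peak lists of equal length the order turns for the partners of Mga and Max (1 gene at 34 h, 2 at 14 h) and for Myc targets (3 at 34 h, 5 at 14 h). With such lists the order also turns over all protein-coding genes (3.15% at 34 h, 3.75% at 14 h).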

How the data were processed

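Peak lists of 6 APOBEC2 ChIP-seq libraries were used, with groups taken from the sample titles. Per the submitters' processing notes, the authors used Subread, MACS2 and mm10, and their versions and the peak threshold were not given in the sources used here. The names of the lists pair each library with its own time's input. The deposited fold is a linear ratio, 2 deposited columns hold the −log10 p-value and the −log10 q-value, and the deposited integer score was not used. Read totals are not in the lists, so depth is unknown. The least −log10 q of a list ranged from 1.58 to 2.90. Summit fragments n and background b were solved from fold = (n + 1)/(b + 1) and the Poisson p, for 100% of peaks to within 0.001 on the −log10 p scale, and the solver was tested on simulated data (Python 3.11.15, SciPy 1.17.1).

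Peaks of a time overlapping by 1 base or more were merged, and a region needed at least 2 libraries. A gene's fold in a library is that of its highest peak. All members are named. Of each other list, all genes with a region are named up to 5 per time, otherwise the 5 of highest mean fold (Brms1l was added after its value was seen), and 3 genes of most similar folds. The values of 1 list gene are not reported here. Members and lists were chosen with earlier results of these data known, and no test was run on them. The 10 members' gene positions are from RefSeq (GRCm38.p6). Alternatives changed the q minimum, list length, libraries required, window, overlap, peak chosen and replicates.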

Additional observations from a re-analysis of the deposited data

How the results depend on the processing

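Of 24 alternative values for the number of members with a shared region, 22 stayed within 1.5 times the reported count. A fall from 3 members to 2 at 34 h meets this limit, so the 22 do not show that the same members were kept. The exceptions were 5 members at 34 h when a peak in any library sufficed, and 1 at 14 h when peaks had to lie inside the gene, since most of the Mxd3 region is outside it. Leaving out each library gave 2 to 3 members at 34 h and 2 at 14 h. At 34 h the count was also 2 with lists of 768 peaks and with all 3 libraries required, which left Mxd3 and Myc. With no flank it was 2 as well, but these were Myc and Mnt, and Mxd3 lost its shared region. The mean fold at Mnt was 6.97 from its highest peaks and 6.15 from the peaks nearest the start. Alternatives for the other lists and for the differences at Mxd3 and Myc were chosen after seeing the data. No paired analysis was possible because no test was run. Summits of 10 or more fragments limit the precision of each fold, and sites under the threshold of a shorter list cannot be told from unbound ones.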
